A study of Rattus norvegicus with 22 samples.

Results

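Scavenger receptors are surface proteins with which macrophages and some endothelial cells take up modified lipoproteins, debris of dying cells and plasma proteins. Perivascular macrophages, which sit between the vessel wall and the glial covering of the brain, are known for carrying several of these receptors, among them Cd163, Mrc1 and Lyve1, whereas resting microglia are known for carrying little of them. The genes described here are Msr1, Cd36, Scarb1, Cd163, Mrc1, Stab1 and Lyve1. They were chosen by name as scavenger receptors and perivascular macrophage markers, and 6 of the 7 are listed among the 17172 genes of the count table and were analysed across all its groups. Stab1, a clearance receptor of macrophages and sinusoidal endothelium, was not analysed here. Each of the 6 passed the filter on low counts, which left 12875 genes tested. Cd36 passed it through its TBI day 1 samples, with 0 to 6 counts in every other sample. Its calls in comparisons that hold TBI day 1 therefore carry little weight in the counts of calls below. Msr1 passed the filter through its TBI samples, with 0 to 7 counts in every sham sample. The calls of Msr1 in TBI against sham carry little weight there too.

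RNA-seq had been performed on the hippocampus of the injured side from adult male Sprague-Dawley rats. TBI rats had received a lateral fluid percussion injury through an opening in the skull, and sham rats the same craniectomy and isoflurane anesthesia without the percussion, so that a surgical wound was shared by all rats. The groups were sham day 1 (n = 2), TBI day 1 (n = 4), sham day 14 (n = 4) and TBI day 14 (n = 4). Each sample is 1 labelled replicate, and the labels do not say more about litters or batches. Samples held 15065540 to 23743703 counts, and the values below are CPM (counts relative to the library total, scaled with TMM factors) or the log2 of CPM with a prior count of 2. Differences are log2 fold changes of a quasi-likelihood model in edgeR fitted over all 14 samples, and a gene was called a DEG at 0.05 after Benjamini-Hochberg adjustment over all tested genes. Neuronal RNA was present in all samples, since 10 hippocampal neuron and synapse genes summed to 3812 to 12050 CPM in the 14 samples. No other tissue was compared, so this sum does not tell hippocampus from other brain tissue with neurons. In bulk tissue, more cells of a type and more RNA of a gene per cell cannot be told apart.

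Genes of neighboring tissue set some samples apart. A list of 15 choroid plexus genes, led by Ttr, summed to 11070 CPM in sham day 1 replicate 1, 8733 in TBI day 14 replicate 3 and 2081 in TBI day 14 replicate 2, against 213 in sham day 1 replicate 2 and 130 to 246 in the 10 other samples. A list of 11 fibroblast and meningeal genes reached 1259 CPM in sham day 1 replicate 1, beside 157 in replicate 2, and 544 in TBI day 1 replicate 4, beside 228 to 248 in the other TBI day 1 samples. In TBI day 14 replicate 3 it stood at 956, of which Igf2 gave 752. All 4 TBI day 1 samples thus lay between the sham day 1 samples on this list. At day 1, 0 of 10 tested fibroblast and meningeal genes and 0 of 14 tested choroid plexus genes were higher in TBI (0 and 0 also at an unadjusted p under 0.05, and with limma-voom or DESeq2). Because sham day 1 replicate 1 was high on both lists, these counts do not show that no such gene rose. Of the 10 fibroblast and meningeal genes, 2 were lower and 0 higher in TBI day 14 than in TBI day 1 by edgeR. They were Aldh1a2 (−2.23, adjusted p = 0.00315) and Slc47a1 (−3.23, adjusted p = 0.00373), named after their values were seen. For Aldh1a2, sham day 1 replicates 1 and 2 stood at 29.7 and 3.60 CPM, and the TBI day 1 samples at 12.7 to 40.7. By edgeR, 11 of the 14 choroid plexus genes were lower at day 1 (1 with limma-voom) and 1, Ttr, was higher at day 14 (0 with limma-voom, 9 with DESeq2). Among all 12875 tested genes, 1437 were higher and 1021 lower at day 1 by edgeR, and 524 higher at day 14. The part of these tissues in the levels of the scavenger receptors was not tested beyond the fits without each sample given below.

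At day 1, 5 of the 6 genes were DEGs and higher in TBI (Msr1, Cd36, Cd163, Mrc1 and Lyve1), against 11.2% of all tested genes called higher. Their 4 TBI samples each lay above both sham samples, which was the case for 16.7% of tested genes. Scarb1 was not a DEG. Cd36 had passed the filter through its TBI day 1 samples and Msr1 through its TBI samples, so their calls add little to these counts. Against the 4 sham day 14 samples, the same 5 genes were called higher in TBI day 1, where 25% of tested genes were. The median log2 fold change of the 6 genes was 2.54, beside −0.02 over all tested genes. At day 14, Msr1 alone was a DEG and higher, against 4.07% of tested genes, and the median of the 6 was 0.16, beside −0.03 over all tested genes. Because Msr1 was tested through its TBI samples, that call adds little to the count. From TBI day 1 to TBI day 14, the same 5 genes fell, against 21.9% of tested genes called lower, and all 4 later samples lay below all 4 earlier ones (19.1% of tested genes).

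**Figure D1:**
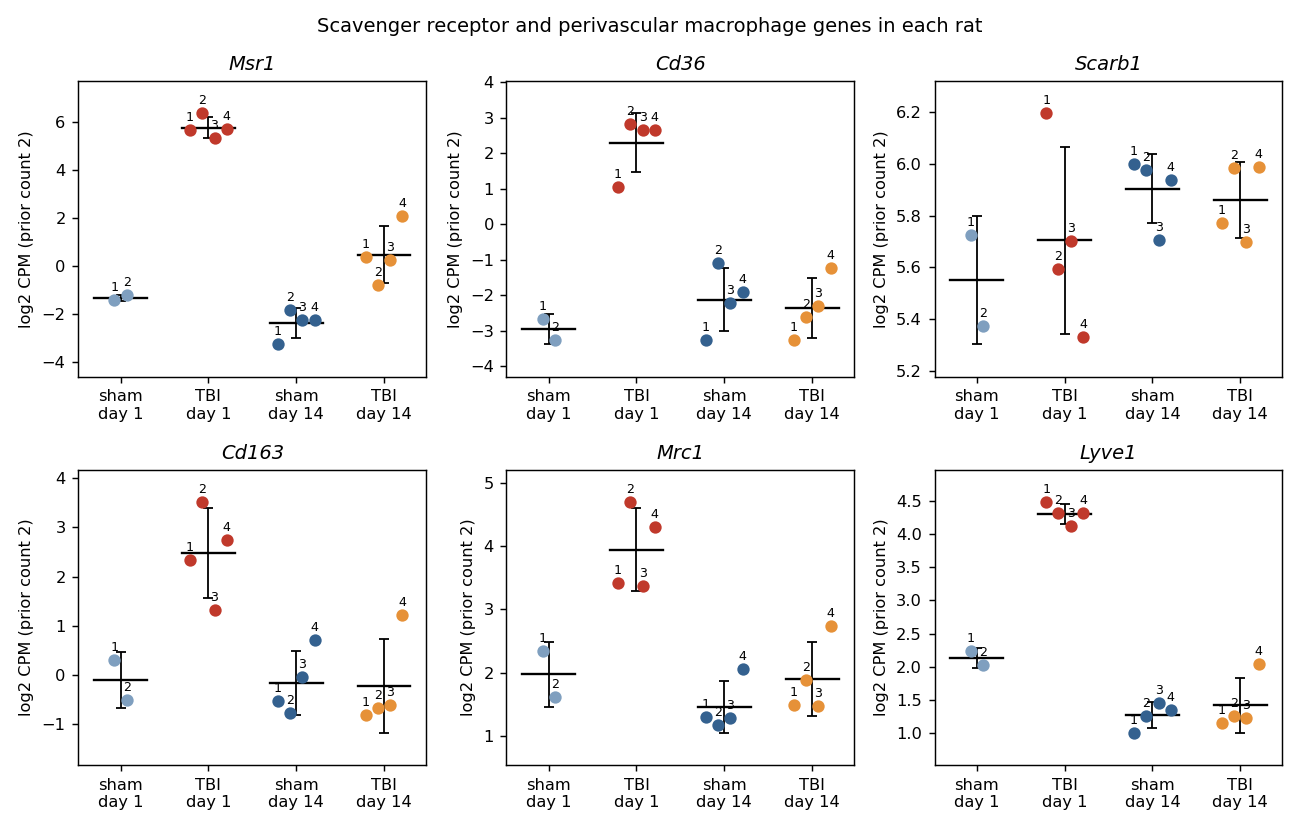
Expression of the 6 measured genes in every rat, as log2 CPM with a prior count of 2 on the vertical axis of each panel (axes differ and do not start at 0). Points are samples labelled by replicate number, and bars are the mean ± SD of the group. TBI day 1 stands above all other samples for Msr1, Cd36, Cd163, Mrc1 and Lyve1, and overlaps them for Scarb1.

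Msr1 encodes the class A macrophage scavenger receptor, a trimeric receptor for modified lipoproteins and other polyanions. Its counts were 5 and 7 in the sham day 1 samples and 962, 2002, 873 and 1155 in TBI day 1. On the CPM scale these were 0.269 and 0.323 in sham and 49.9, 81.3, 40.0 and 51.7 in TBI. The groups did not overlap, and the lowest TBI sample was far above both sham samples. The fitted log2 fold change was 7.52 ± 0.78 (SE, edgeR-adjusted p = 1.94e-05), or 183-fold on the linear scale. The ratio of the summed counts, scaled by library size, was 190, with an exact 95% interval from 109 to 368 that covers counting error only. At day 14, Msr1 had 0, 3, 2 and 2 counts in the sham samples and 18, 8, 22 and 77 in the TBI samples. Every TBI sample was above every sham sample, which 9.13% of tested genes showed, and replicate 4 of TBI stood highest with 4.07 CPM beside 0.469 to 1.19 in the others. The log2 fold change at day 14 was 4.00 ± 0.76 (SE, edgeR-adjusted p = 0.00461), and the ratio of summed counts was 17.2 (exact 95% interval 8.13 to 43.8). TBI day 14 was also above sham day 1, by 2.51 (edgeR-adjusted p = 0.0331), a contrast in which 9.62% of tested genes were called higher. Without TBI day 14 replicate 4 the log2 fold change was 3.10 and Msr1 was still a DEG. With limma-voom, the kind of model named in the study's methods, it was 3.61 and not called (adjusted p = 0.0784). From TBI day 1 to TBI day 14 Msr1 fell by 5.01 ± 0.47 on the log2 scale (SE, edgeR-adjusted p = 4.97e-06).

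The class B scavenger receptors are represented by Cd36 and Scarb1, related membrane proteins. Cd36, which takes up fatty acids and oxidized lipoproteins, had 1 and 0 counts in sham day 1 and 38, 170, 135 and 137 in TBI day 1. In CPM, the TBI samples were at 1.97, 6.90, 6.19 and 6.13. Replicate 1 of TBI day 1 was the lowest of its group and still above all 10 samples of the other groups. With 1 count in the sham samples together, the ratio of summed counts was 219 (exact 95% interval 39.2 to 8680), and the adjusted p-value was 0.000554 by edgeR. Against the 11 counts of the 4 sham day 14 samples, which share no rat with it, the ratio for TBI day 1 was 34.1 (exact 95% interval 18.9 to 68.7). At day 14 Cd36 was near the limit of detection in both groups, with 0, 6, 2 and 3 counts in sham and 0, 1, 2 and 6 in TBI. These groups overlapped, and a difference was not detectable at this depth (fitted difference −0.34 ± 0.92 on the log2 scale, SE, edgeR-adjusted p = 0.951). The RefSeq annotation of the newer build GRCr8 lists a second locus, Cd36-ps1, and how reads shared with it were counted was not tested.

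Scarb1, the receptor for high-density lipoprotein, had 52.8 and 41.4 CPM in sham day 1 and 73.1, 48.2, 51.9 and 40.2 in TBI day 1. Of the TBI samples, replicate 1 lay above both sham samples, replicate 4 below both and the others between them. At day 14 the values were 63.8, 62.9, 52.1 and 61.2 CPM in sham and 54.5, 63.1, 51.8 and 63.4 in TBI. Fitted log2 fold changes were 0.18 ± 0.20 at day 1 and −0.04 ± 0.16 at day 14 (SE, edgeR-adjusted p = 0.564 and 0.969). An interval of 2 SE on either side ran from −0.22 to 0.58 at day 1 and from −0.37 to 0.28 at day 14. The rises of the 5 DEGs at day 1 were all above both intervals, within which a smaller change of Scarb1 could lie. TBI day 1 replicate 1, the highest sample, set the direction at day 1, since the log2 fold change was −0.01 without it. In that sample the neuron and synapse genes summed to 3812 CPM, beside 7148 to 7640 in the other TBI day 1 samples. A list of endothelial genes summed to 1499 CPM there, beside 825 to 1016. The part of these differences in its Scarb1 level was not tested.

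Cd163, the receptor for complexes of hemoglobin and haptoglobin, had 21 and 13 counts in sham day 1, or 1.13 and 0.599 CPM. In TBI day 1 it had 96, 279, 52 and 148 counts, or 4.98, 11.3, 2.38 and 6.63 CPM. The groups did not overlap, with replicate 2 the highest and replicate 3 the lowest of TBI. Its log2 fold change was 2.88 ± 0.76 (SE, edgeR-adjusted p = 0.0166), a 7.34-fold rise. At day 14 it had 0.590, 0.481, 0.865 and 1.52 CPM in sham and 0.464, 0.527, 0.547 and 2.22 in TBI. Apart from TBI day 14 replicate 4, each TBI sample lay within or below the range of sham. The log2 fold change at day 14 was 0.12 ± 0.60 (SE, edgeR-adjusted p = 0.978) and −0.76 without that replicate, and was not called in either fit. From TBI day 1 to TBI day 14 Cd163 fell by 2.73 ± 0.57 (SE, edgeR-adjusted p = 0.00173).

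Mrc1 encodes the macrophage mannose receptor, a lectin that clears glycoproteins. It stood at 4.96 and 2.95 CPM in sham day 1 and at 10.6, 25.8, 10.2 and 19.6 in TBI day 1, without overlap. The log2 fold change was 2.07 ± 0.48 (SE, edgeR-adjusted p = 0.00805), a 4.19-fold rise. At day 14 the levels were 2.36, 2.16, 2.33 and 4.08 CPM in sham and 2.72, 3.57, 2.68 and 6.55 in TBI. In each group replicate 4 was the highest, and the sham sample of that number lay above 3 of the 4 TBI samples. The log2 fold change was 0.51 ± 0.38 (SE, edgeR-adjusted p = 0.699). Both Mrc1 and Cd163 were higher in sham day 1 replicate 1, the sample with the high choroid plexus sum, than in replicate 2. With replicate 1 as the lone sham day 1 sample, the log2 fold changes at day 1 were 1.74 for Mrc1 and 2.48 for Cd163, and neither was called (adjusted p = 0.114 and 0.162 by edgeR). With replicate 2 alone they were 2.49 and 3.39, and both were called. In these fits the lone sample is assumed to vary like those of the other groups. With sham day 14 as the baseline for TBI day 1, both were called (2.59 and 2.85).

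Lyve1, a hyaluronan receptor of the lymphatic endothelium and of perivascular and meningeal macrophages, had the smallest spread in TBI day 1 of the 5 genes that rose. Its levels there were 22.2, 19.7, 17.2 and 19.7 CPM, beside 4.63 and 3.97 in sham day 1. The groups did not overlap, and the log2 fold change was 2.20 ± 0.27 (SE, edgeR-adjusted p = 7.59e-05), a 4.59-fold rise. At day 14 Lyve1 had 1.90, 2.28, 2.65 and 2.45 CPM in sham and 2.12, 2.28, 2.24 and 4.01 in TBI. The groups overlapped, with TBI replicate 4 above all others. The change was 0.20 ± 0.22 (SE, edgeR-adjusted p = 0.828). Lyve1 was the only one of the 6 genes called different between the sham groups, where 11.3% of tested genes were called higher at day 1. Its level in both sham day 1 samples was above all 4 sham day 14 samples (21.3% of tested genes, among them Msr1), with a log2 difference of 0.88 ± 0.25 (SE, edgeR-adjusted p = 0.0263). That call was lost in 5 of 14 fits without 1 sample, namely without either sham day 1 sample or without sham day 14 replicates 1, 2 or 4 (0.77 to 0.99, adjusted p from 0.0533 to 0.107). The rise of Lyve1 at TBI day 1 was thus 2.20 against sham day 1 and 3.08 against sham day 14 (adjusted p = 1.37e-07 by edgeR).

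**Figure D2:**
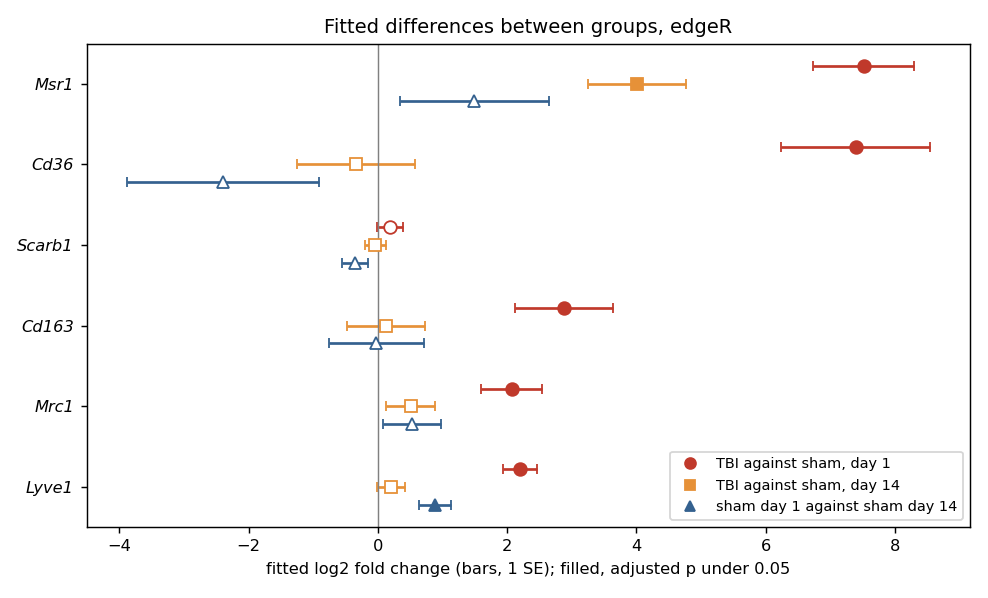
Fitted log2 fold changes of the 6 genes (horizontal axis) for TBI against sham at day 1, TBI against sham at day 14 and sham day 1 against sham day 14, with bars of 1 SE. Filled symbols mark DEGs, which holds for 5 genes at day 1, for Msr1 at day 14 and for Lyve1 between the sham groups. The day 1 value of Cd36 rests on 1 count in sham.

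The effect of TBI differed between the days by test for 2 of the 6 genes, against 2.24% of tested genes called higher at day 1 than at day 14. For Lyve1 the day 1 effect exceeded that at day 14 by 2.00 ± 0.34 (SE, edgeR-adjusted p = 0.00633). For Cd36 the adjusted p-value was 0.0142 by edgeR, and it was 0.0554 without sham day 1 replicate 2, 0.0617 without sham day 14 replicate 2 and 0.0673 with limma-voom. The differences for Msr1 (3.52, SE 1.47), Cd163 (2.75, SE 0.95) and Mrc1 (1.56, SE 0.59) did not pass the threshold (adjusted p = 0.204, 0.121 and 0.161 by edgeR). Without TBI day 14 replicate 4, which was the highest TBI day 14 sample for each of these genes, the differences for Msr1 and Cd163 were 4.42 and 3.63 and passed it (adjusted p = 0.032 and 0.0352 by edgeR).

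Ordered by mean log2 CPM (± SD, with 2 samples in sham day 1 and 4 in each other group), Msr1 was highest in TBI day 1 with 5.75 ± 0.43, followed by TBI day 14 with 0.47 ± 1.18, sham day 1 with −1.32 ± 0.14 and sham day 14 with −2.38 ± 0.62. The sham groups were its only neighbors in that order that were not called different (edgeR-adjusted p = 0.385), although they did not overlap. Lyve1 was highest in TBI day 1 with 4.30 ± 0.15, then came sham day 1 with 2.13 ± 0.16, TBI day 14 with 1.42 ± 0.42 and sham day 14 with 1.27 ± 0.20. TBI day 14 was told apart neither from sham day 1 (edgeR-adjusted p = 0.0619) nor from sham day 14. Cd36, Cd163 and Mrc1 were at 2.29 ± 0.83, 2.48 ± 0.92 and 3.94 ± 0.66 in TBI day 1, and their other 3 groups were not told apart (edgeR-adjusted p from 0.27 to 0.986 over the pairs). Mean Scarb1 was lowest in sham day 1 with 5.55 ± 0.25 and highest in sham day 14 with 5.90 ± 0.13, and no pair of its groups differed (edgeR-adjusted p of at least 0.235).

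The injured rats of a group did not rank alike for all 5 genes. In TBI day 1, replicate 2 had the highest Msr1, Cd36, Cd163 and Mrc1, and replicate 3 the lowest Msr1, Cd163, Mrc1 and Lyve1. For Lyve1 replicate 1 was the highest, although it was the lowest for Cd36. In TBI day 14, replicate 4 was the highest for all 5 genes. By summed CPM, lists of monocyte and recruited macrophage genes, neutrophil genes and other perivascular macrophage markers were also highest in TBI day 1 replicate 2 and TBI day 14 replicate 4. The monocyte list summed to 1571 CPM in TBI day 1 replicate 2 (947 to 1154 in the other TBI day 1 samples) and 433 in TBI day 14 replicate 4 (207 to 295 in the others). Of the 1571 CPM, Fn1 gave 634, Lyz2 394 and Cd44 346, so the sum mostly follows these genes. The neutrophil sum of TBI day 14 replicate 4 was 26.7, of which Csf3r gave 25.9. Without Csf3r it was the lowest of its group, at 0.845 (0.995 to 1.64 in the others). As a mean of log2 CPM relative to all 14 samples, perivascular macrophage markers in TBI day 1 replicate 2 (1.35) were below replicates 3 (1.57) and 4 (1.49). Microglia genes summed to 1964 CPM in TBI day 14 replicate 4 and 1131 to 1509 in the others of that group, but to 754 in TBI day 1 replicate 2, the lowest of its group. Choroid plexus genes were not raised in either rat, at 130 and 224 CPM.

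**Figure D3:**
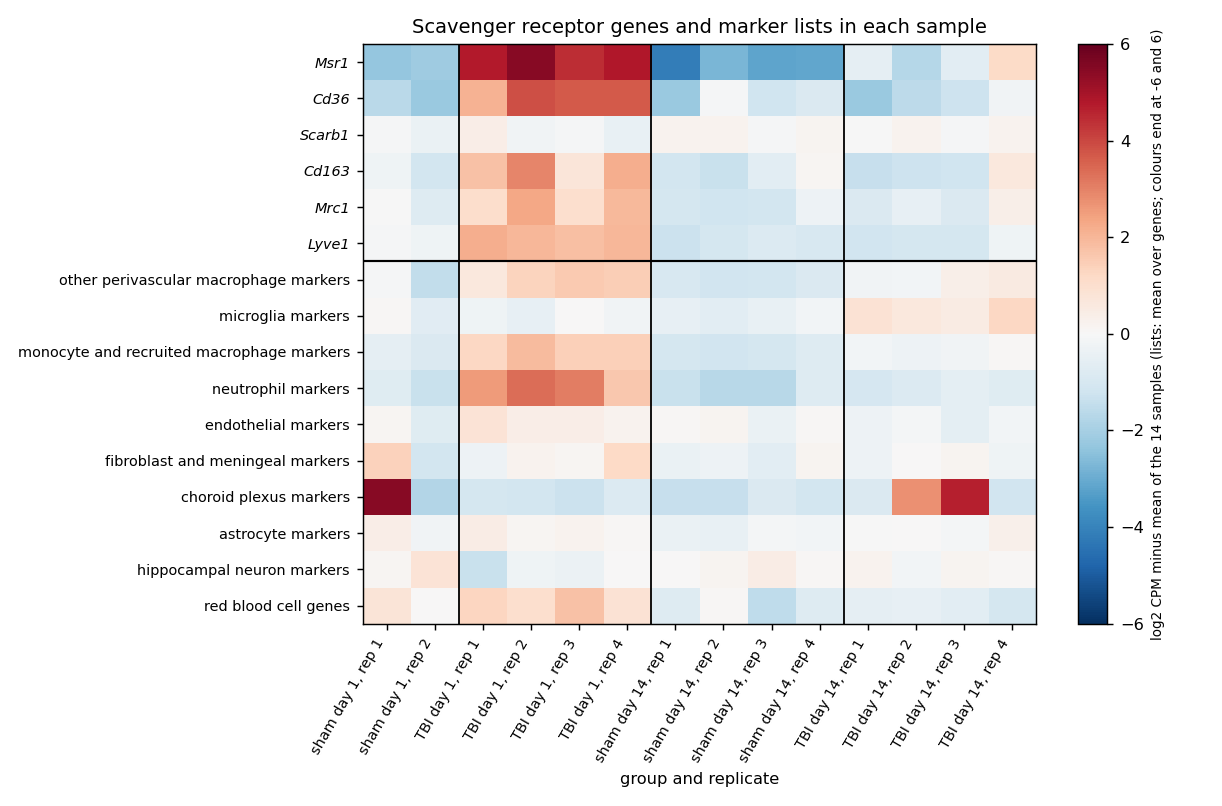
Log2 CPM of the 6 genes, and the mean over each cell type list, relative to the mean of all 14 samples (color scale from −6 to 6), with 1 column per sample. Msr1, Cd36, Cd163, Mrc1 and Lyve1 are high in TBI day 1 together with monocyte and neutrophil genes, microglia genes are highest in TBI day 14, and choroid plexus genes stand out in 3 samples.

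Likeness of profile was measured as the root-mean-square difference of centered log2 CPM over the 14 samples, for the 5 genes that rose. The gene nearest to Cd163 among all tested genes was Mrc1 (0.43), followed by Mgst2 (0.49) and Ret (0.56), against a spread of Cd163 itself of 1.44 (SD). Nearest to Mrc1 were Chdh (0.38), Hspb8 (0.39) and Fndc3c1 (0.40), nearest to Lyve1 were Tmem100 (0.25), Tlr10 (0.34) and Mt1a (0.37), and nearest to Msr1 were H19 (0.82) and the monocyte chemokines Ccl7 (0.85) and Ccl2 (0.91). For Cd36 they were RGD1561778 (0.72), RGD1559482 (0.74) and Runx3 (0.76). These distances share the libraries and the large step at TBI day 1, and they are a description.

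Because Mrc1 was the gene nearest to Cd163, their promoter windows are shown, each with 250 bases before and 50 after the RefSeq start of the gene on GRCr8, read in the direction of the gene. That build is newer than the one behind the counts. Capitals mark the letters GAGGAA, the core bound by the myeloid factor PU.1, read on either strand. The AP-1 letters TGANTCA and the TATA box letters TATAAA were searched in the same way, and no matches overlapped.
Mrc1 (chr17:82157475-82157774, plus strand): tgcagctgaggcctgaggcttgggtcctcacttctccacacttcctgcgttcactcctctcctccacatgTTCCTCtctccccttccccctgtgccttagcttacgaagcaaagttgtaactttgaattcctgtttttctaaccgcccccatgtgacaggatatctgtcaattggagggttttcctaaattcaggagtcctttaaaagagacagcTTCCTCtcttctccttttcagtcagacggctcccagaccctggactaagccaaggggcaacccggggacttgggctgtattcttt
Cd163 (chr4:158770524-158770823, plus strand): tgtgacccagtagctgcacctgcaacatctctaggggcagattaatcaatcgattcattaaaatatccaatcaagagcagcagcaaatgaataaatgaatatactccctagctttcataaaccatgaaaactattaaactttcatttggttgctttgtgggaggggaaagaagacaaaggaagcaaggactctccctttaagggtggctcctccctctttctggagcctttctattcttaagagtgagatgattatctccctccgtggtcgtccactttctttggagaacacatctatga
The Mrc1 window held GAGGAA on the opposite strand at 2 places, with first bases at −180 and −35 relative to the start of the gene, and the Cd163 window held none of the 3 motifs. Windows were found for 5 of the 7 genes. Those of Cd36 and Stab1 also held the PU.1 letters (1 and 2 matches), that of Cd36 held the TATA box as well, and that of Lyve1 held none of the 3. Among the 33469 windows of this length, 27.6% held the PU.1 letters, 14.2% the TATA box and 7.33% the AP-1 letters. A match is a match of letters, and no binding was measured.

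Other scavenger receptors were described from a list of 17 genes, 15 of which were tested. Of these, the same 5 were higher at both days (11.2% of all tested genes at day 1 and 4.07% at day 14). By edgeR, 0 were lower at either day (1 at day 1 and 0 at day 14 at an unadjusted p under 0.05 and, after adjustment, 1 and 0 with DESeq2 and 0 and 0 with limma-voom). The list's medians on the log2 scale were 0.76 and 0.21 at the earlier and later day. Clec7a, a receptor for fungal glucans, rose by 6.65 at day 1 and 5.88 at day 14, and Cd14, a co-receptor for lipopolysaccharide, by 5.58 and 1.97. Cd68, a lysosomal glycoprotein of phagocytes, rose by 3.85 and 4.93, and Olr1, the lectin-like receptor for oxidized lipoprotein, by 3.34 and 3.20. The fifth, Cxcl16, named after its values were seen, is a scavenger receptor that is also a chemokine and rose by 2.23 and 2.10. Of the 5, Cd14 differed between the days by test (3.61, edgeR-adjusted p = 0.00333), and Cd68 was not shown to (−1.08, edgeR-adjusted p = 0.308).

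Of 10 further perivascular macrophage markers tested, 6 were higher at day 1 (11.2% of all tested genes) and 2 at day 14 (4.07%). The list medians were 2.10 and 0.62. The rises at day 1 were led by Folr2, a folate receptor of macrophages (3.48, SE 0.82, adjusted p = 0.00868 by edgeR), Siglec1, a sialic acid-binding receptor (3.43), Tgfbi, a secreted matrix protein (3.19), and Cd74, the invariant chain of MHC class II (2.49). The 2 genes higher at day 14 were Cd74 (4.23, adjusted p = 8.73e-07 by edgeR) and Siglec1 (3.92, adjusted p = 0.00431), neither of which is limited to perivascular macrophages, while Folr2 was at 1.58 and not called (adjusted p = 0.249). Summed CPM of the list was 78.5 and 149.5 in the sham day 1 samples and 349 to 509 after injury at that day. The later samples had 68.4 to 96.4 without and 529 to 761 with injury, of which Cd74 made up 464 to 674. Leaving out Cd74, the sums were 53.5 and 103.9 against 189 to 311 at day 1, and 50.2 to 59.6 against 63.0 to 87.7 at day 14.

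Recruited leukocytes and resident microglia were compared through lists of their own. Of 11 monocyte and recruited macrophage genes tested, 8 were higher at day 1 and 4 at day 14, with medians of 2.66 and 0.43. Their summed CPM was 193 and 250 in sham day 1, 192 to 229 in sham day 14 and as given above after injury. Among them the adhesion receptor Cd44 rose by 3.66 and 1.84, the integrin Itgal by 3.58 and 2.43, lysozyme Lyz2 by 3.19 and 1.66, and the coagulation factor F10 by 1.89 and 4.82. Of 10 neutrophil genes listed, 5 passed the filter on low counts, S100a8, Cxcr2 and Elane through their TBI day 1 samples, so that the count of calls carries little weight. S100a9, S100a8, Cxcr2 and Csf3r were called higher at day 1, of which S100a8 and Cxcr2 are named for the count, and Csf3r also at day 14. The 5 not tested (Mpo, Camp, Ltf, Retnlg and Ngp) had 0 to 10 counts per TBI day 1 sample. Neutrophil genes summed to 4.38 and 10.1 CPM in the sham day 1 samples, beside 29.5 to 77.8 after injury. At the later day, the list ranged from 5.57 to 7.62 without and from 15.6 to 26.7 with injury, of which Csf3r made up 14.0 to 25.9, and the others together were at 0.379 to 1.52 without and 0.845 to 1.64 with injury. The granule gene Elane had 11, 10, 16 and 1 counts in TBI day 1 and 0 in all other samples, and Ltf had 0 in all samples but TBI day 14 replicate 3, with 2. Of 12 microglia genes tested, 2 were higher and 3 lower at day 1, and 10 were higher at day 14, with medians of 0.05 and 1.27. Among all 12875 tested genes, 1437 were higher and 1021 lower at day 1, and 524 were higher at day 14. At day 1 the integrin Itgam rose by 2.64 and the microglial membrane protein Tmem119 fell by 1.90, and at day 14 the lipid receptor Trem2 rose by 2.12 and the growth factor receptor Csf1r by 1.60. The part of recruited cells in the rise of Msr1, Cd36, Cd163, Mrc1 and Lyve1 was not tested, and none of these lists separates an arriving cell from a resident one that changed.

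Endothelial genes are relevant because Cd36, Scarb1 and Lyve1 are also expressed by endothelium. By edgeR, 3 of 10 tested were higher at day 1, against 11.2% of all tested genes. The 3 were Vwf (1.88), Pecam1 (1.14) and the glucose transporter Slc2a1 (1.11). At day 14, 0 of 10 were higher by edgeR (0 at an unadjusted p under 0.05, with limma-voom or with DESeq2), against 4.07% of all tested genes. The whole list reached 825 to 1499 CPM after injury at day 1, beside 389 and 709 in the sham samples. Their part in the rise of Cd36 and Lyve1 was not tested.

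**Figure D4:**
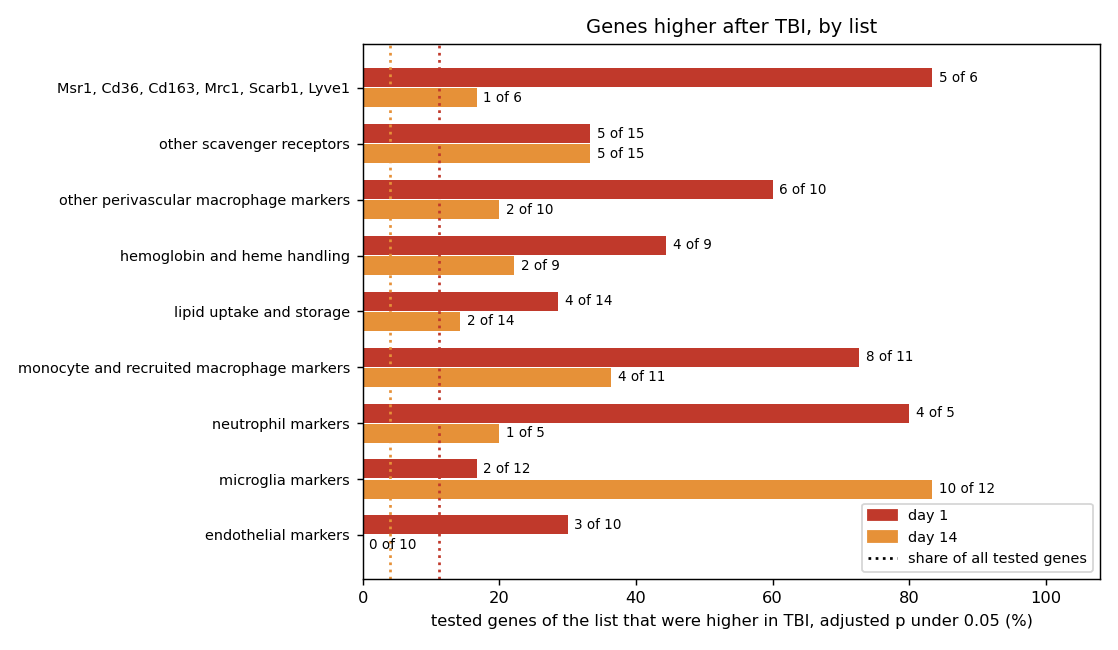
Share of the tested genes of each list that were DEGs and higher in TBI than in sham (horizontal axis, %), at day 1 and day 14, with the counts beside the bars. Dotted lines mark the share of all tested genes (11.2% at day 1 and 4.07% at day 14). The 6 scavenger receptor genes and the leukocyte lists have more genes called at day 1 than at day 14, and the microglia list the reverse. The neutrophil list has 5 tested genes of 10 listed.

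The ligands and products handled by these receptors were described last. Of 9 hemoglobin and heme handling genes tested, 4 were higher at day 1 and 2 at day 14, with medians of 0.71 and −0.01. Among all tested genes, 11.2% were higher at day 1 and 4.07% at day 14, with medians of −0.02 and −0.03. Hmox1, the inducible enzyme that breaks down heme, had 9.11 and 5.99 CPM in sham day 1 and 72.5, 161.6, 99.7 and 67.9 in TBI day 1. Replicate 2 of TBI day 1 was thus the highest for Hmox1 as it was for Cd163. Hmox1 rose by 3.74 ± 0.35 at day 1 and by 1.95 ± 0.25 at day 14 (SE, edgeR-adjusted p = 8.93e-06 and 0.000187). The metal transporter Slc11a1 (2.49) and the heme-binding plasma protein Hpx (2.38) were higher at day 1, and the ferritin light chain gene Ftl1 at both days against the sham samples of the same day (0.89 and 0.79). The log2 difference of Ftl1 between sham day 1 and sham day 14 was −1.63 (edgeR-adjusted p = 0.00216), and with sham day 14 as the baseline TBI day 1 turned to −0.73 (edgeR-adjusted p = 0.00712). Haptoglobin (Hp), the partner of hemoglobin in binding Cd163 and named after its values were seen, was not a DEG (0.71 at day 1, adjusted p = 0.253 by edgeR). Summed CPM of red blood cell genes was 450 to 1112 after injury at day 1 and 272 and 548 in the sham samples, and 0 of 6 tested were called at either day by edgeR, limma-voom or DESeq2 (1 was higher at day 1 at an unadjusted p under 0.05).

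Of 14 lipid uptake and storage genes, 4 were higher and 2 lower at day 1, and 2 were higher at day 14, with medians of 0.34 and 0.32. Among all 12875 tested genes, 1437 were higher and 1021 lower at day 1, with 524 higher at day 14. The lipid droplet protein Plin2 rose by 2.76 at day 1 and 0.96 at day 14. The fatty acid-binding proteins Fabp4 (2.60) and Fabp5 (1.62) and the oxysterol receptor Nr1h3 (1.48) were higher at day 1. Of these, Fabp5 differed between the days by test (edgeR-adjusted p = 0.00731), and Fabp4 and Nr1h3 were not shown to (0.594 and 0.206). Lipoprotein lipase (Lpl, −1.40) and the acyl-CoA synthetase Acsl1 (−0.36) were lower at day 1. At day 14 the cholesterol exporter Abca1 was higher (1.21). Lpl, Acsl1, Abca1 and Pdzk1 are named after their values were seen. Pdzk1, the scaffold protein that binds Scarb1, was at −0.26 and −0.16 and, like Scarb1, was not called at either day (adjusted p = 0.403 and 0.832 by edgeR).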

How the data were processed

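Total RNA from rat hippocampus had been sequenced as stranded single-end mRNA libraries from 14 samples. Per the labels and the study's methods, the authors aligned reads to rn5 with STAR 2.4.2a after FastQC 0.11.8 and deposited raw gene counts from featureCounts 1.5.0. The strand setting is not given in the sources used here. Groups came from the labels. The genes and lists were chosen with earlier results of these data known. Analysis used R 4.3.3 with edgeR 4.0.16. Genes were filtered with filterByExpr by group, scaled by TMM, and tested two-sided with the quasi-likelihood F-test on 1 mean per group over 14 samples, with Benjamini-Hochberg adjustment. Each SE was derived from that test, as the absolute log2 fold change divided by the square root of F, and is approximate at low counts. A group had 2 or 4 samples, and nothing in the labels says more of their independence than that they are separate replicates, so p-values measure the spread between these samples. Depth was 15065540 to 23743703 counts per sample, and count intervals cover counting error only. All 7 genes were named by the rule, and from each list only called genes, at most 4, by size of change with mean log2 CPM above 0, plus the 3 genes nearest in profile to each called gene. Exceptions are stated. Alternatives were limma-voom (limma 3.58.1), DESeq2 1.42.0, RLE factors, other filters, a replicate block, other sample sets and leaving out each sample. The fit was tested on simulated data. Peak files, on rn5 positions, were not used here, and 1 result of the lipid list is not reported here.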

Additional observations from a re-analysis of the deposited data

Results flagged for a closer look

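Among 18 groups of 4 samples (6 genes in 3 groups), 4 held a sample whose gap to its nearest neighbor, as a share of the group's range of log2 CPM, exceeded Dixon's 95% critical value, which chance passes in about 1 group of 20. Cd36 in TBI day 1 replicate 1 was low, with a gap of 0.905 of the range. Cd163 in TBI day 14 replicate 4 was high with 0.904, and Lyve1 in the same sample was high with 0.886. Mrc1 in sham day 14 replicate 4 was high with 0.864. Sham day 1, with 2 samples, could not be examined in this way.

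The TBI effect differed between the days by the interaction test in edgeR for 2 genes. The difference of the log2 fold changes, day 1 minus day 14, was 7.74 for Cd36 (adjusted p = 0.0142), whose sham day 1 level rests on 1 count, and 2.00 for Lyve1 (adjusted p = 0.00633). All 4 TBI samples lay above the sham samples at day 1 for both genes, and the groups overlapped at day 14.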

How the results depend on the processing

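The number of the 6 genes called higher at day 1 was 5, and 2 where at least 10 counts were required in every sample (Msr1, Cd36 and Cd163 were then not tested), with 3 to 5 when each sample was left out (3 without sham day 1 replicate 2). At day 14 it was 1, and 0 with limma-voom, with at least 10 counts in every sample and with only the groups compared (Msr1 was not tested in the last pair). The TBI effects differed between days for 2 genes, for 1 with limma-voom or at least 10 counts, and for 4 with DESeq2 (Msr1 and Cd163 added), with 1 to 4 when each sample was left out (1 without sham day 1 replicate 2 or sham day 14 replicate 2, 4 without TBI day 14 replicate 4). Between sham groups the count of 1 ranged from 0 to 1, and the 5 genes lower at TBI day 14 than at TBI day 1 were 2 with at least 10 counts in every sample. Over the other lists, 37 genes were higher at day 1 (24 without sham day 1 replicate 2 to 50 without replicate 1) and 20 lower (9 with limma-voom, 9 without sham day 1 replicate 1 to 28 without TBI day 1 replicate 4). At day 14, 1 was lower (2 with the replicate block, 1 to 2 when each sample was left out). With sham day 14 as the baseline, the day 1 call of Ftl1 turned from higher to lower, as given above. No call of the 6 genes turned its direction. The uncalled log2 fold changes that turned sign were Cd36 at day 14 (0.15 with all 6 sham samples as 1 group, −1.39 to 0.37 with a sample left out), Cd163 at day 14 (−0.074 with limma-voom, −0.014 with the replicate block, −0.76 to 0.54), Cd163 between sham groups (0.015 with limma-voom, 0.19 with the block, −0.54 to 0.40), Scarb1 at day 1 (−0.17 against sham day 14, −0.062 with all 6 sham samples, −0.01 to 0.37), Scarb1 at day 14 (0.063 with all 6 sham samples, −0.11 to 0.025 with a sample left out) and Lyve1 at day 14 (−0.16 with all 6 sham samples, −0.07 to 0.29 with a sample left out). RLE factors and no filter changed no call of the 30 gene results. The causes were not tested.

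Pairing by replicate number was not seen: deviations of the 18 same-numbered pairs correlated from −0.35 to 0.24, and 3 of 14 samples matched best with their own number. The median correlation was 0.034 for these pairs and −0.0325 for the others. Deviations of the sham day 1 samples mirror each other, so the correlations are not independent and do not settle whether samples were paired. With the replicate block, 1468 genes were higher and 1178 lower at day 1 (1437 and 1021 without it), 475 and 46 at day 14 (524 and 47), and 5 and 1 of the 6 genes were still called. With only the groups compared, 557 genes were higher and 94 lower at day 1, and 903 and 205 at day 14. With DESeq2, 119 were lower at day 14. Depth limits Cd36 and Msr1 in sham, at 0 to 7 counts per sample.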
